A study of Homo sapiens with 4 samples.

Results

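The genes described here encode 10 enzymes: asparagine synthetase (ASNS), the enzymes of serine synthesis (PHGDH, PSAT1 and PSPH) and folate enzymes that carry single-carbon units (SHMT1, SHMT2, MTHFD1, MTHFD2, MTHFD1L and ALDH1L2). They were picked by name out of 19090 genes with a named probe, with earlier results of these arrays known: several of them had lower signal on the treated arrays than on the control array. The differences from the control array below are therefore given as a description, with no test. All 10 genes had a probe and were matched by Entrez identifier; 3 of them had 2 probes, which gave 13 probes in all.

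HepG2 cells, an established line of human liver cancer by their label, had received a synthetic RNA by transfection. It was a miR-214 mimic, the small interfering RNA siPVT1-1 or siPVT1-2, or a duplex labelled as negative control (NC). Both siPVT1 duplexes are aimed at the long noncoding RNA PVT1, and the study set PVT1 beside miR-214 in liver cancer. All groups shared the RPMI-1640 medium with 10% serum and the transfection reagent; the sources used here do not say when cells were harvested. Total RNA of each transfection was labelled with Cy5 and read on 1 OneArray Plus array, so each group is 1 array, no difference has a replicate check and no p-value is given for single genes. PVT1 had no named probe, and the arrays give no check of its knockdown.

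Asparagine synthetase moves an amide nitrogen from glutamine onto aspartate. Serine is made from a glycolytic intermediate in successive steps by PHGDH, PSAT1 and PSPH. Serine then gives a carbon to tetrahydrofolate through SHMT1 in the cytosol or SHMT2 in mitochondria, where MTHFD2 and MTHFD1L carry it on to formate that leaves for the cytosol. There MTHFD1 returns it to the folate pool for purine and thymidylate synthesis. In mitochondria, ALDH1L2 instead oxidises the carbon unit still bound to folate to carbon dioxide. As background, several of these genes, ASNS foremost, are known to be induced by the transcription factor ATF4 when amino acids run short or proteins misfold. RPMI-1640 is a medium that supplies asparagine, serine and glycine.

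The RNA that the mimic is named after is shown because it is one of the agents compared; the labels do not say which strand the mimic carries. Both mature strands of human miR-214 (RefSeq, GRCh38.p14, chr1:172138816-172138837 and chr1:172138857-172138878, minus strand) are given with the seed, bases 2 to 8, in capitals. The strands share no seed.
hsa-miR-214-3p: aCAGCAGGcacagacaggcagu
hsa-miR-214-5p: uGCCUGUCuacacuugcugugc

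Next come stretches just before the transcription starts of the 4 genes with the lowest signal relative to NC on the siPVT1-1 array, since these genes are set beside each other throughout. RefSeq promoter windows of 300 bases (250 before a start and 50 after it, GRCh38.p14) were at hand for 7 of the 10 genes, 11 windows in all. Each stretch covers the 100 bases before a listed start. They are ASNS at chr7:97872409-97872508 on the minus strand, PHGDH at chr1:119711834-119711933, PSAT1 at chr9:78297025-78297124 and MTHFD2 at chr2:74198515-74198614, the last 3 on the plus strand. Capitals mark matches to TGATGNAAN, the form of the element bound by C/EBP and ATF factors, and to GTTACA, the second part of the nutrient element known in ASNS. Both strands were searched, also for the E-box CACGTG, and no match in these windows overlapped one of another motif.
ASNS: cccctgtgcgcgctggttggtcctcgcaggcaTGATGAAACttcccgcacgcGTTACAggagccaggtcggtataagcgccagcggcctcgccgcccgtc
PHGDH: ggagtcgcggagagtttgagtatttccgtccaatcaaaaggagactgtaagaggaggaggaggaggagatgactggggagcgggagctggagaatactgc
PSAT1: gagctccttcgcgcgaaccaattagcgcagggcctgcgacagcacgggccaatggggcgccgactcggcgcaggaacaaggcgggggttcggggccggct
MTHFD2: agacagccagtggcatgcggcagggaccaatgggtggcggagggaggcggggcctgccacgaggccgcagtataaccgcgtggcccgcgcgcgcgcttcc

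ASNS had 2 windows, and the one shown was picked because it holds TGATGNAAN. It held TGATGAAAC at bases -68 to -60 and GTTACA at bases -48 to -43 from its start. The other window, with its start at chr7:97872165, held no match to any motif searched. RefSeq's ASNS gene spans chr7:97851677-97928441, so the start of the window shown is not its outermost one. The only other enzyme gene with a match to TGATGNAAN was MTHFD1L, where TGATGCAAT lay at chr6:150866357-150866365, on the plus strand, in 3 of its windows. It is shown with its neighbouring bases (chr6:150866346-150866375), and the match lies at bases 25 to 33 from one listed start and -129 to -121 from another.
MTHFD1L: gccgccggctcTGATGCAATcgcgccgggc

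Of all 35116 windows, 3.61% held TGATGNAAN, 6.66% GTTACA and 7.26% CACGTG. The E-box was found in windows of MTHFD1L and MTHFD1. None of the 3 motifs was in the single windows of PHGDH, PSAT1, MTHFD2 and SHMT1, which says only that these letters are not in those 300 bases. A match is a string of letters and not a measured binding site.

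Deposited intensities were made comparable by giving all arrays the same distribution (quantile normalization), then raised to 64 where lower and put on the log2 scale. A gene was compared when the mean of its brightest probe exceeded 9.72 on this scale, the median of all probes, and was called lower or higher at a difference of at least 2-fold. This left 10666 genes, among them 9 of the 10 enzymes. ALDH1L2 was too dim. Its 2 probes averaged 8.74 and 7.56, so its values are given only at the end of the account of folate enzymes.

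The median deposited intensity was highest on the NC array, at 927, against 828, 836 and 784 with the mimic, siPVT1-1 and siPVT1-2. The share of values under the floor was lowest there, at 8.1%, against 9.5, 9.9 and 11.7%. Markers of the labelled cell type were dim: of 13 hepatocyte genes with a probe, 2 were above the level filter, and albumin (ALB) stood at percentile 13.2 and alpha-fetoprotein (AFP) at 27.8 of all genes by mean level. The identity of the cells was therefore not borne out by these markers and is taken from the labels. The summed deposited intensity of this list was 6998, 6999 and 6022 on the mimic, siPVT1-1 and siPVT1-2 arrays, against 8075 on the NC array. Of 8 fibroblast genes, 3 passed the filter, and COL3A1 and POSTN were at the floor on all 4 arrays. The brightest of them, LUM, stood at percentile 97.9. The sum of this list was 212619, 182917 and 209623 on the treated arrays in that order, against 159940 on the NC array. Deposited intensities were summed, so bright probes such as those of LUM weigh most. After normalization LUM differed from NC by 0.25, 0.2 and 0.42 (second probe 0.54, -0.07 and 0.42). COL1A1 differed by -0.38, 0.12 and -0.23, and DCN by -0.29, 0.03 and -0.09 (second probe 0.55, -0.03 and 0.38). The endothelial list passed with 2 of 6 genes, blood cells with 1 of 5 and other epithelia with 4 of 5. In this last list KRT7 stood at percentile 96.1, KRT14 at 82.8, SFN at 81.0, EPCAM at 45.6 and KRT5 at 11.1. The part of cell makeup in the results below was not tested, and in total RNA fewer cells of a kind and less RNA per cell cannot be told apart.

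Asparagine synthetase had the widest differences of all the enzymes. The deposited ASNS intensity was 60322 with the mimic, 25883 with siPVT1-1 and 38624 with siPVT1-2, against 204074 with NC. After normalization the log2 levels were 15.83, 14.67 and 15.25 on these treated arrays, against 17.77 on the NC array. The NC array was thus highest and the siPVT1-1 array lowest. The level was 3.84-fold lower with the mimic, 8.57-fold lower with siPVT1-1 and 5.73-fold lower with siPVT1-2. Of the 10666 genes compared, 4 were at least as far below NC as ASNS with siPVT1-1 (itself included), 6 with siPVT1-2 and 32 with the mimic. The NC value was not at the top of the scale, since 156 probes were brighter on that array and its brightest probe read 513408.

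Of the serine synthesis enzymes, PHGDH and PSAT1 were at least 2-fold lower on all 3 treated arrays. PSPH passed 2-fold with siPVT1-1 and siPVT1-2 only, and on no array when arrays were centred on their medians (-0.22, -0.86 and -0.75 with the mimic, siPVT1-1 and siPVT1-2). PHGDH, which oxidises the glycolytic intermediate in the step that commits it to serine, had log2 levels of 12.86, 12.43 and 12.43 on the mimic, siPVT1-1 and siPVT1-2 arrays, against 14.37 on the NC array. It was 2.85-fold, 3.84-fold and 3.85-fold lower in that order, and both siPVT1 arrays lay below the mimic array. PSAT1, the aminotransferase of the next step, stood at 15.67, 15.72 and 15.59 on the treated arrays, against 17.46 on the NC array. The 3 treated arrays lay within 0.13 of each other, and the ratios to NC were 3.46-fold, 3.34-fold and 3.66-fold lower.

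A second PSAT1 probe gave 14.7, 14.16 and 14.44 on the mimic, siPVT1-1 and siPVT1-2 arrays, against 16.16 on the NC array. It was likewise at least 2-fold lower on each, but spread the treated arrays by 0.54. PSPH, the phosphatase that releases serine, had log2 levels of 14.83, 14.25 and 14.29 on the treated arrays, against 15.31 on the NC array. Its difference of -0.48 with the mimic lay within 2-fold, and those of -1.06 and -1.02 with siPVT1-1 and siPVT1-2 were just past it. A similar pseudogene, PSPHP1, exists and probe sequences were not analysed here, so the PSPH signal is less certain. The plot of signal on each array shows the 13 probes with the NC array on top for most of them. By brightest probe NC was on top for 7 of the 9 compared enzymes, picked with such differences known. It was so for 30.8% of all genes compared.

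**Figure D1:**
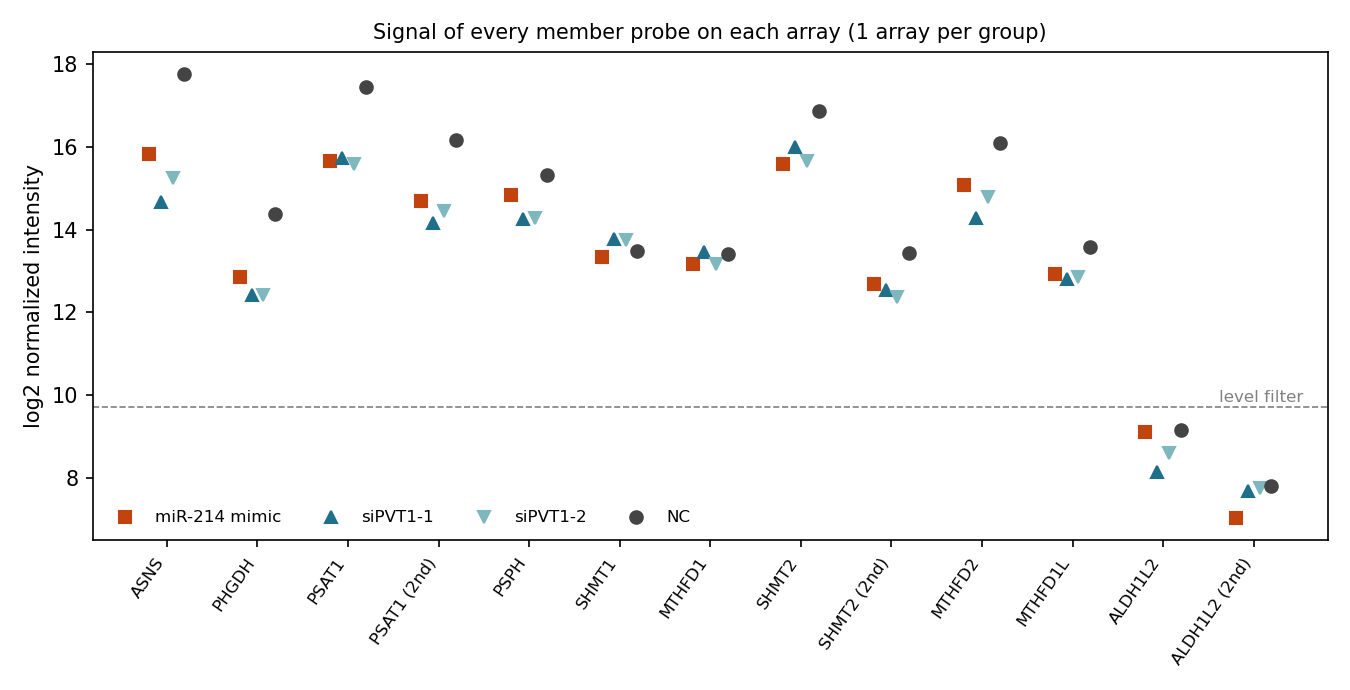
Log2 normalized intensity (vertical axis) of all 13 probes of the 10 enzyme genes, 1 symbol per array; "2nd" marks a gene's dimmer probe and the dashed line is the level filter at 9.72. The NC symbol stands above the treated arrays for ASNS, PHGDH, PSAT1, PSPH, SHMT2, MTHFD2 and MTHFD1L, and among the treated arrays for SHMT1 and MTHFD1. For the ALDH1L2 probes, under the dashed line, it stands only 0.06 and 0.07 above the nearest treated array.

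Among the folate enzymes of mitochondria, after quantile normalization, MTHFD2 was at least 2-fold lower on all 3 treated arrays. SHMT2, by its brighter probe, was so on 2 of them. MTHFD1L lay below NC but within 2-fold on each treated array, and ALDH1L2, under the level filter, is given no direction. The cytosolic SHMT1 and MTHFD1 lay within 2-fold of NC on every array. MTHFD2, the mitochondrial dehydrogenase and cyclohydrolase, had log2 levels of 15.08, 14.28 and 14.78 with the mimic, siPVT1-1 and siPVT1-2, against 16.1 with NC. It was 2.03-fold, 3.53-fold and 2.51-fold lower, with the siPVT1-1 array lowest, as for ASNS. The mimic value of MTHFD2 missed 2-fold with arrays as deposited (-0.86), centred on their medians (-0.7) or corrected for curves of intensity (-0.95). With median centring its siPVT1-2 value missed it too (-0.98). SHMT2, which splits serine into glycine and a carbon unit in mitochondria, stood at 15.58, 16.0 and 15.67 on the treated arrays, against 16.88 on the NC array. Its differences were -1.29 with the mimic, -0.88 with siPVT1-1 and -1.2 with siPVT1-2, so the siPVT1-1 array missed the 2-fold rule. With median centring they were -0.98, -0.58 and -0.86, all within 2-fold.

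A dimmer SHMT2 probe stood at 12.69, 12.54 and 12.37, against 13.44 on the NC array. By this probe the differences were -0.76, -0.91 and -1.07, so the probes disagreed on whether the mimic array passed 2-fold, but both placed NC on top. MTHFD1L, the mitochondrial enzyme that releases formate, had log2 levels of 12.92, 12.8 and 12.86 on the treated arrays, against 13.58 on the NC array. Its differences of -0.65, -0.78 and -0.72 all lay within 2-fold, and the treated arrays lay within 0.12 of each other.

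SHMT1, the cytosolic form of the serine-splitting enzyme, had log2 levels of 13.35, 13.77 and 13.76 with the mimic, siPVT1-1 and siPVT1-2, against 13.49 with NC. Its differences were -0.14, 0.28 and 0.28; the mimic value is near 0 and turned to 0.05 when arrays were centred on their medians. MTHFD1, the enzyme with 3 activities that recaptures formate in the cytosol, stood at 13.17, 13.45 and 13.16, against 13.4 with NC, and differed from NC by -0.23, 0.05 and -0.24. For both genes the NC level lay between the highest and lowest treated arrays.

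ALDH1L2 lay under the level filter and its probes disagreed on the order of the treated arrays. The brighter one had log2 levels of 9.1, 8.13 and 8.6 on the mimic, siPVT1-1 and siPVT1-2 arrays, against 9.15 on the NC array. The dimmer one had 7.02, 7.67 and 7.74, against 7.81 on the NC array. The lowest array was siPVT1-1 by the brighter probe and the mimic by the dimmer one. Both probes placed NC on top, but by only 0.06 and 0.07 over the nearest treated array. At these low levels no direction is given for this gene.

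**Figure D2:**
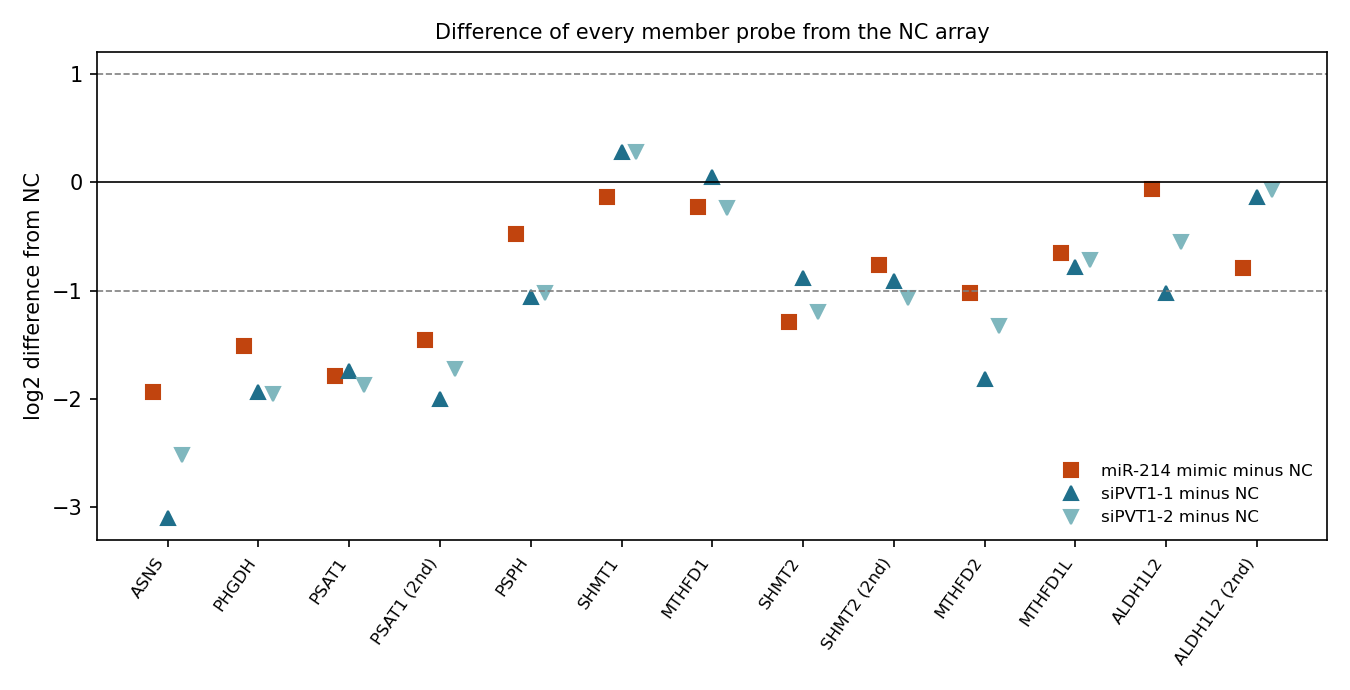
Log2 difference from the NC array (vertical axis) for the same 13 probes, 1 symbol per treated array, with dashed lines at 2-fold. ASNS reaches -3.1 with siPVT1-1, PHGDH and both PSAT1 probes lie between -1.46 and -2.0, and SHMT1 and MTHFD1 lie between -0.24 and 0.28.

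How unequally the compartments differed can be read within each array, where a constant that scales a whole array drops out. The SHMT2 difference from NC minus the SHMT1 difference was -1.16 with the mimic, -1.16 with siPVT1-1 and -1.48 with siPVT1-2. By the dimmer SHMT2 probe the same quantity was -0.62, -1.19 and -1.35. For MTHFD2 minus MTHFD1 it was -0.8, -1.87 and -1.09, and for MTHFD1L minus MTHFD1 it was -0.43, -0.83 and -0.48. All 12 of these values were below 0, also when arrays were left as deposited or scaled by cyclic loess, a correction for curves of intensity. Median centring scales whole arrays, so it gave the same values as the deposited arrays and is no further check. They share the NC array and, for both MTHFD1 pairs, the MTHFD1 spots, and there is no replicate error to set them against.

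**Figure D3:**
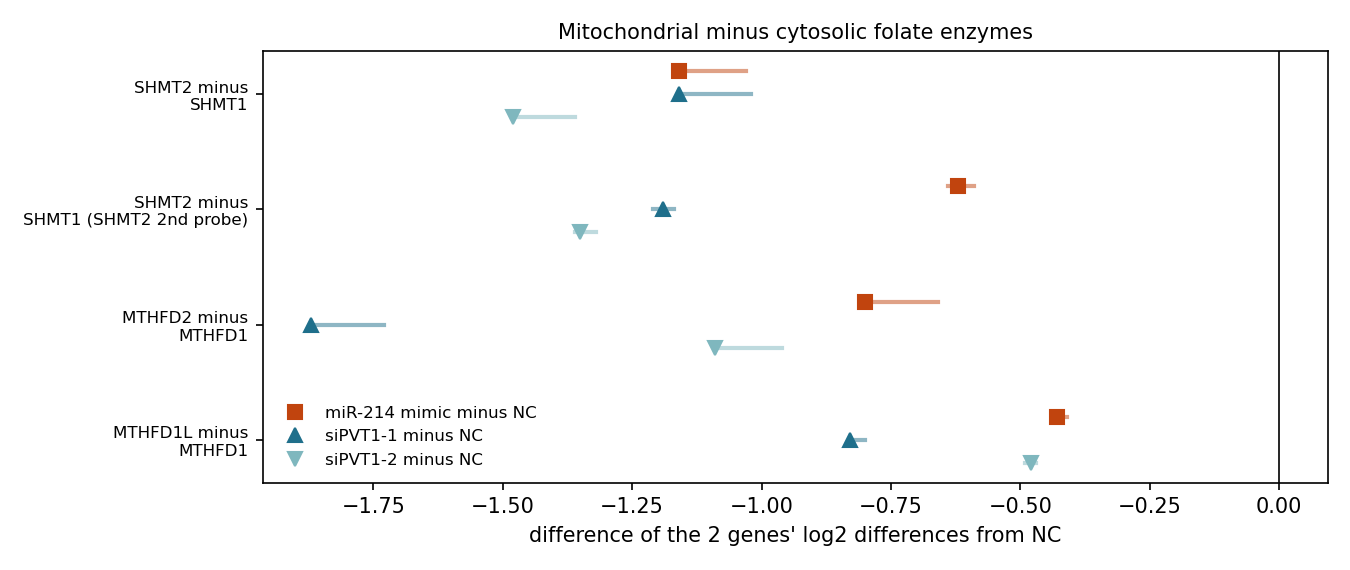
Difference between the log2 differences from NC of a mitochondrial and a cytosolic folate enzyme (horizontal axis), with symbols for quantile normalization and lines for the range over 4 ways of scaling. Deposited and median-centred arrays give the same values here. All symbols lie left of 0, with MTHFD2 minus MTHFD1 on the siPVT1-1 array the farthest at -1.87.

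Counted by the 2-fold rule, 5 of the 9 compared enzymes were lower with the mimic and 0 higher, where 2.84% of all genes were called lower and 1.95% higher. These were ASNS, PHGDH, PSAT1, SHMT2 and MTHFD2. With siPVT1-1 the count was 5 of 9 lower and 0 higher (background 1.72% lower and 1.25% higher), with PSPH in place of SHMT2. With siPVT1-2 it was 6 of 9 lower and 0 higher (background 1.2% lower and 1.33% higher), namely these 5 and SHMT2. Since the genes were picked with such differences known, nothing is read from these counts.

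The counts hold genes near the 2-fold line and moved with the rule. At 3-fold, 2 enzymes were lower with the mimic (ASNS and PSAT1; 0.553% of all genes) and 3 with siPVT1-2 (ASNS, PHGDH and PSAT1; 0.347%). With each array centred on its median, these same 3 were lower at 2-fold with the mimic (1.9% of all genes) and with siPVT1-2 (0.732%). Lower with siPVT1-1 and siPVT1-2 alike, comparisons that share the NC array, were ASNS, PHGDH, PSAT1, PSPH and MTHFD2, 5 of 9, and 0 were higher (background 0.891% lower and 0.694% higher). That count was 3 at 3-fold (0.281%) and 3 with median centring (0.581%). The median log2 difference of the 9 enzymes was -1.02, -1.06 and -1.2 with the mimic, siPVT1-1 and siPVT1-2, against medians of -0.02, 0.01 and -0.01 over all genes compared.

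All 3 comparisons share the NC array, so a signal that was unusually high on that 1 array would lower all 3 differences at once. For ASNS the NC level lay 1.94 above the nearest treated array, and the treated arrays spanned 1.16. For PHGDH the gap was 1.51 and the span 0.43, and for PSAT1 1.74 and 0.13. For SHMT2 the values were 0.88 and 0.42, for MTHFD2 1.02 and 0.8, and for MTHFD1L 0.65 and 0.12. PSPH had a gap of 0.48, smaller than its span of 0.58. In 6 of the 9 enzymes NC stood above the treated arrays by more than these differed among themselves, against 10.4% of all genes compared. Since the enzymes were picked with such differences known, nothing is read from this contrast. Whether the NC array or the treatments set this cannot be told apart with 1 control array.

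**Figure D4:**
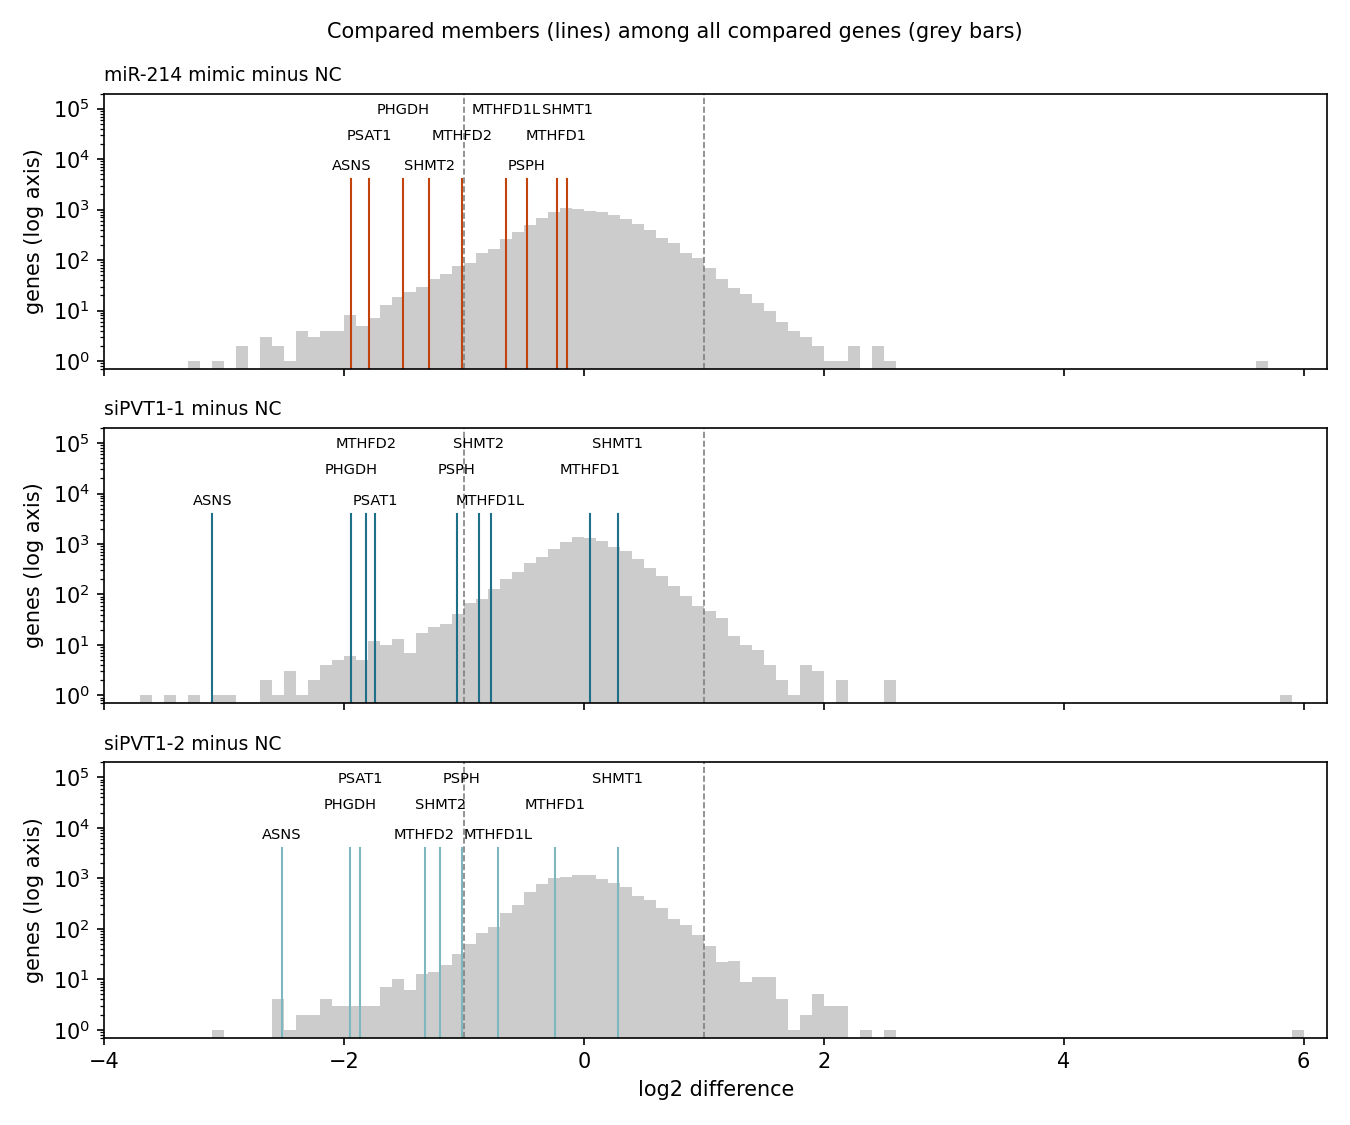
Number of compared genes (log axis) by log2 difference from NC in bins of 0.1 for each treated array, with lines at the 9 compared enzymes and dashed lines at 2-fold. On the siPVT1-1 array ASNS stands at -3.1 beyond almost all genes, while SHMT1 and MTHFD1 stand in the bulk on every array.

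The treated arrays can also be compared with each other, which leaves the NC array out. Between the mimic and siPVT1-1 arrays, ASNS was 2.23-fold higher with the mimic, the only enzyme of 9 past 2-fold there; 1.39% of all genes were called higher and 1.63% lower. MTHFD2 stood 0.8 higher, PSPH 0.58 and PHGDH 0.43 higher on the log2 scale, while SHMT1 and SHMT2 stood at -0.42 each. The dimmer SHMT2 probe gave 0.15, and the probes of PSAT1 gave -0.05 and 0.54, so these genes have no settled direction in this comparison. Between the mimic and siPVT1-2 arrays 0 of 9 enzymes passed 2-fold (background 0.263% higher and 1.41% lower), with ASNS at 0.58, PSPH at 0.54, PHGDH at 0.43 and SHMT1 at -0.42.

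Between siPVT1-1 and siPVT1-2, 0 of 9 passed 2-fold (background 0.0938% higher and 0.403% lower). The differences were 0.0 for PHGDH and SHMT1, -0.03 for PSPH, -0.06 for MTHFD1L and 0.13 for PSAT1, whose second probe turned the sign (-0.28). SHMT2 stood at 0.32 (second probe 0.16) and MTHFD1 at 0.28, near the SD of 0.29 over all genes. ASNS was lower with siPVT1-1 by -0.58 and MTHFD2 by -0.49. Of all genes compared, 3.43% differed by at least as much as ASNS in either direction between these arrays and 6.29% by at least as much as MTHFD2.

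Lists of neighbouring pathways hold known members of each; they were drawn up with earlier results of these arrays known, and the genes named from them are mainly those with the largest mean difference from NC. Below, called means past 2-fold from NC, as were 2.84%, 1.72% and 1.2% of all genes (lower) and 1.95%, 1.25% and 1.33% (higher) with the mimic, siPVT1-1 and siPVT1-2, and each list's median is set beside the medians of all genes given above. Of 12 compared genes of the folate cycle and folate transport, 0 were lower on any treated array and 1, DHFR2, was higher with the mimic, where 1.95% of all genes were. Their medians were 0.18, 0.08 and 0.18 with the mimic, siPVT1-1 and siPVT1-2. The widest differences were those of DHFR2, a dihydrofolate reductase (1.36, 0.51 and 0.84; its second probe, under the filter, 0.1, 0.25 and 0.46), of MTRR, which reactivates methionine synthase (-0.79, -0.32 and -0.73), and of MTFMT, which formylates the mitochondrial initiator tRNA (0.81, 0.71 and 0.55).

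Purine synthesis draws on the formate made by the mitochondrial enzymes. Of its 11 compared genes 0 were called on any treated array, with medians of 0.07, 0.1 and 0.16. GART, whose enzyme uses formyl folate, stood at -0.23, -0.59 and -0.47 (second probe 0.64, -0.3 and 0.22), PRPS1 at 0.1, 0.66 and 0.62, and IMPDH1 at 0.6, 0.6 and 0.53. In lower glycolysis, around the branch to serine, 0 of 6 genes were called by their brightest probes, and the medians were 0.47, 0.31 and 0.43. PGAM1, which takes up the intermediate next after the branch, stood at 0.63, 0.74 and 0.78 (second probe 1.18, 0.71 and 1.06), the pyruvate kinase PKM at 0.76, 0.27 and 0.61, and the kinase PGK1 at 0.5, 0.62 and 0.45.

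The methionine cycle and transsulfuration list, in which serine is joined to homocysteine on the way to cysteine, had medians of -0.28, -0.28 and -0.31 over 7 genes. CBS, the enzyme that joins them, had log2 levels of 13.16, 12.24 and 12.45 on the mimic, siPVT1-1 and siPVT1-2 arrays, against 14.2 on the NC array. It was 2.07-fold, 3.91-fold and 3.38-fold lower. CTH, which then frees cysteine, was lower by 2.19-fold with siPVT1-1 and differed by -0.46 with the mimic and -0.98 with siPVT1-2. MAT2A, the enzyme that makes S-adenosylmethionine, stood at -0.28, -0.64 and -0.58 (second probe -0.49, -0.34 and -0.43). No gene of this list was called higher.

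Other amino acid enzymes were mixed. Of 11 compared genes for proline, glutamine, glutamate, aspartate and alanine, 2 were lower with the mimic, 1 with siPVT1-1 and 0 with siPVT1-2, 0 were higher (all genes 2.84%, 1.72% and 1.2% lower), and the medians were -0.1, -0.01 and 0.06. ASS1, which consumes aspartate to make argininosuccinate, stood at -1.07, -1.15 and -0.98. The aspartate aminotransferases were below NC, GOT1 by -0.85, -0.97 and -0.76 and GOT2 by -1.01, -0.34 and -0.57, while ALDH18A1, which begins proline synthesis, stood at 0.82, 0.39 and 0.82. In glycine cleavage and serine breakdown 1 of 5 genes was called, the serine racemase gene SRR with the mimic (-1.07, against -0.18 and -0.29 with siPVT1-1 and siPVT1-2), and the medians were -0.45, -0.18 and -0.05. DLD stood at -0.62, -0.46 and -0.43, with a second probe at 0.45, -0.66 and 0.05, and GLYCTK at -0.02, 0.41 and 0.31.

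The list of regulators of amino acid stress had medians of -0.6, -1.23 and -0.66 over 11 genes, with 3, 6 and 5 of them lower and 0 higher, beside 2.84%, 1.72% and 1.2% of all genes lower. ATF4 itself stood at -0.42, -0.71 and -0.64, within 2-fold (second probe 0.02, 0.15 and 0.12), as measured on RNA, whereas ATF4 is known to be controlled largely in its translation. TRIB3, an ATF4-induced pseudokinase, stood at -1.0, -2.07 and -1.59 (second probe -0.46, -2.06 and -1.4), and SESN2, a leucine sensor, at -1.11, -2.43 and -1.66. CHAC1, which breaks down glutathione, stood at -1.17, -3.67 and -1.58; its siPVT1-1 level of 8.48 lay under the filter level, so that size is uncertain. The list did not differ throughout: the differences of EIF2AK3, EIF2AK4 and PPP1R15A lay between -0.18 and 0.14 on every treated array. For CHAC1, SESN2 and TRIB3, as for ASNS and MTHFD2, the lowest array was siPVT1-1.

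**Figure D5:**
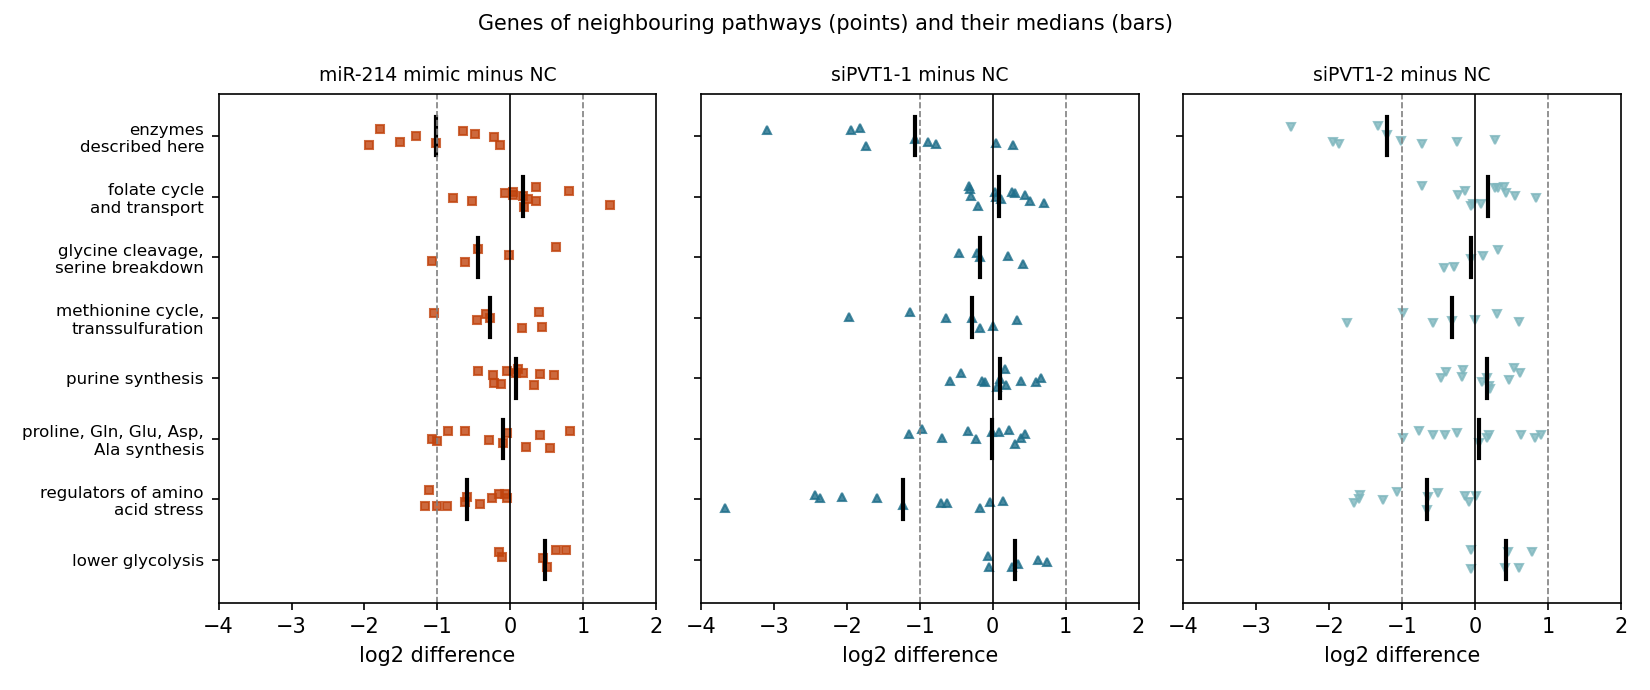
Log2 differences from NC (horizontal axis) of the 9 compared enzymes and of the compared genes in 7 lists of neighbouring pathways, 1 panel per treated array, with black bars at the medians and dashed lines at 2-fold. The medians of the enzymes (-1.02, -1.06 and -1.2) and of the stress regulators (-0.6, -1.23 and -0.66) lie left of 0, and those of folate transport, purine synthesis and lower glycolysis lie right of it.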

How the data were processed

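Per the labels' protocols, total RNA (integrity number of at least 6) was amplified, labelled with Cy5 and hybridised in 1 colour to OneArray Plus chips. The authors deposited linear intensities, some of them below 0; the sources used here give no scanner, software or background correction. The 28264 probes were named from the platform annotation, with symbols updated through Entrez identifiers to RefSeq (GRCh38.p14): 25893 had 1 symbol, 0 several and 2371 none here. Quantile normalization used limma 3.58.1 in R 4.3.3; a floor of 64 and log2 followed. A gene took its brightest probe by mean over 4 arrays. Of 10668 genes above the level filter, 2 at the floor on an array were left out. Counting was tested on simulated data. With 1 array per group, differences were called by size and have no error estimate; the number of arrays limits the precision.

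The enzymes, lists, motifs and rules were chosen with earlier results of these data known. Named genes were all 10 enzymes, ATF4, up to 3 genes per list with the largest absolute mean difference from NC, and the 5 genes nearest in pattern to ASNS and to SHMT2. GOT2, EIF2AK3, EIF2AK4, PPP1R15A, KRT7 and KRT5 were added after their values were seen. Alternatives were other scalings, level filters, probe rules, floors and thresholds. A limma fit with both siPVT1 arrays as 1 group was also run and is not used.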

Additional observations from a re-analysis of the deposited data

How the results depend on the processing

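With each array centred on its median, 3 enzymes in place of 5 were lower with the mimic and 3 in place of 6 with siPVT1-2, namely ASNS, PHGDH and PSAT1 in each; 1.9% and 0.732% of all genes were then called lower. This centring put the median of all genes 0.108, 0.114 and 0.157 above NC with the mimic, siPVT1-1 and siPVT1-2. At 3-fold the counts were 2 with the mimic (ASNS and PSAT1; 0.553% of all genes) and 3 with siPVT1-2 (0.347%). Lower with siPVT1-1 and siPVT1-2 alike, 2 comparisons that share the NC array, were 5 enzymes, and 3 with median centring or at 3-fold. A limma fit with both siPVT1 arrays as 1 group gives no valid test here, since the duplexes are not replicates and the enzymes were picked from the same differences, so its values are left out. The other alternatives kept each count of enzymes lower than NC within 1.5 times. Between the mimic and siPVT1-1 arrays, where ASNS was higher at 2-fold, MTHFD2 joined it at 1.5-fold and no enzyme passed 3-fold. Of 150 single values of enzymes under other scalings, probes or floors, 127 moved by less than a yardstick and 23 by more. The yardstick was the SD over all genes of the difference between the siPVT1 arrays, divided by the square root of 2. Many of the 127 could not move. All enzymes lay above the floor, and averaging probes can change only the 3 genes with 2 probes. Most of the 23 came with median centring, and 0 values past 2-fold turned sign. Of genes called, 40.7, 42.1 and 52.6% were higher with the mimic, siPVT1-1 and siPVT1-2, against 63.4, 55.8 and 78.0% with median centring and 35.4, 30.4 and 37.1% as deposited. No paired analysis was possible because each group is 1 array.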

Other observations

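The genes nearest to ASNS in their 3 log2 differences from NC, by Euclidean distance and leaving out the enzymes described above, were IGFBP1 (distance 0.53), NIBAN1 (0.67), SLC1A4 (0.67), GDF15 (0.73) and BEX2 (0.82). IGFBP1, an insulin-like growth factor binding protein, stood at -1.94 with the mimic, -2.64 with siPVT1-1 and -2.25 with siPVT1-2. SLC1A4, a neutral amino acid transporter that carries serine, stood at -1.87, -2.46 and -2.34. GDF15, a stress-induced cytokine, stood at -2.65, -3.23 and -2.6.

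Nearest to SHMT2 were PIP5K1B (distance 0.14), PART1 (0.16), SLC35F6 (0.17), FHIP2A (0.18) and CAMK2N1 (0.22). PIP5K1B, a lipid kinase, stood at -1.25, -1.01 and -1.2 on the mimic, siPVT1-1 and siPVT1-2 arrays. Likeness here rests on 3 differences that share 1 control array, and smaller differences have more neighbours by this measure.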
